A study of Danio rerio with 45 samples.

Results

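Condensin is a ring-shaped protein machine that folds and stiffens chromosomes for cell division. Its core is a pair of ATPases, smc2 and smc4, which both forms of the complex share. Condensin I adds the kleisin ncaph, which closes the ring, and the HEAT-repeat subunits ncapd2 and ncapg. Condensin II adds the kleisin ncaph2 and the HEAT-repeat subunits ncapd3 and ncapg2. In vertebrate cells condensin II is mostly nuclear through interphase and condensin I meets the chromosomes after the nuclear envelope breaks down. The early zebrafish embryo starts from maternal RNA, divides rapidly, and begins large-scale transcription of its own genome at the mid-blastula stage, the zygotic genome activation. The RNAs of the 8 subunits were picked by gene symbol from a table of 31966 genes, ignoring case, and 7 of the 8 had a row of their own. The symbol smc2 occurred only in a merged row with si:dkey-245p14.4, named exoc1l in the RefSeq gene table, and reads of the 2 loci cannot be separated in it. That row is described beside the others as the smc2 locus and is left out of every count of subunits.

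The series measured pools of 100 whole zebrafish embryos of strain AB/PS by stranded sequencing of total RNA after ribosomal RNA removal. Embryos injected with a morpholino, an antisense oligo that blocks the use of an mRNA, against rad21 (Rad21 MO) or against ctcf (CTCF MO) were set beside wild-type control embryos (WT) at 5 stages, which were 2.5 and 3.3, then 4.5 and 5.3, and last 10 hours post fertilisation (hpf). The title of the series places these stages before and after zygotic genome activation. Each of the 15 groups held 3 libraries, and stage was matched by eye. rad21 encodes the kleisin of cohesin, a relative of condensin that holds sister chromatids together and forms chromatin loops, and ctcf encodes the DNA-binding protein at which many of those loops stop. The labels do not say whether the controls were injected, so injection itself cannot be told apart from the knockdown. Levels are in FPKM (fragment counts divided by transcript length in kilobases and by the mapped total in units of 1000000), so levels can be set beside each other between subunits. The depth of each library is unknown.

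Library and label facts that touch the results were as follows. Replicates of a group correlated at r = 0.932 to 0.962 on the log2 scale, and 12788 to 15833 genes reached 1 FPKM per library. FPKM sums over all genes ranged from 675988 to 1815960 and were lower in Rad21 MO than in WT at 4.5 hpf (837085 to 1102440, against 1111850 to 1207930) and at 5.3 hpf (1037050 to 1265210, against 1386740 to 1539680). The sums in CTCF MO were also below WT at 5.3 hpf (1175680 to 1236930), and overlapped WT at 4.5 hpf (1039740 to 1292990). In Rad21 MO at 2.5 hpf they lay just below WT (675988 to 707869, against 713734 to 815274). The title and the age label disagree for 2 Rad21 MO libraries, 1 of them titled 3.3 hpf with an age of 4.5 hpf and 1 the other way round. The table names its columns by number and not by title letter. Their stage was checked with krt4, a keratin of the enveloping layer, which read 1.58 to 6.61 FPKM in the Rad21 MO columns of 3.3 hpf and 167 to 238 FPKM in those of 4.5 hpf. The RNA of rad21a was lower in Rad21 MO at 4.5 hpf (94.1, 112 and 94.99 FPKM, against 132, 158 and 139 in WT), and that of ctcf was lower in CTCF MO at 5.3 hpf (239, 233 and 238 FPKM, against 499, 517 and 473 in WT). In the values as deposited each RNA was also lower with the other morpholino, at a stage where the FPKM sums of those libraries were below WT too. Levels of these RNAs under other scalings are not given here. The level of ctcf was also lower in Rad21 MO at 4.5 hpf (198, 289 and 256 FPKM, against 367, 452 and 378 in WT, adjusted p = 0.0273), and that of rad21a in CTCF MO at 5.3 hpf (159, 157 and 161 FPKM, against 208, 210.0 and 191 in WT, adjusted p = 0.0332). At 10 hpf rad21a read 172, 193 and 184 FPKM in Rad21 MO, against 206, 147 and 157 FPKM in WT, and was not called. The level of ctcf at that stage was 167, 141 and 158 FPKM in CTCF MO, overlapping WT (155, 143 and 154 FPKM). In Rad21 MO it was below WT, at 103, 87.6 and 97.1 FPKM. A morpholino can act without lowering its target's RNA, so these levels check the labels only in part.

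On the Zv9 assembly the authors' table placed smc4 at chromosome 15, 1529849 to 1568335, ncapd2 at chromosome 2, 44811403 to 44839093, and ncapg at chromosome 1, 22333571 to 22370015. The row of ncaph lay at chromosome 5, 29904203 to 29915494. Among condensin II genes, ncapd3 lay at chromosome 1, 20323104 to 20345692, ncapg2 at chromosome 7, 41598134 to 41620274, and ncaph2 at chromosome 4, 17510171 to 17520419. The smc2 locus spanned chromosome 1, 18277014 to 18304105, so that 3 of the 8 rows, the smc2 locus, ncapd3 and ncapg, sat within 4.09 Mb of chromosome 1. Small RNA rows overlapped smc4 (dre-mir-15c and dre-mir-16a), ncapd2 (snoU85) and ncapg2 (5S_rRNA), and C1H10orf12 overlapped ncapg. Whether the authors' counting used strand is not given in the sources used here, so reads of such partners may not be told apart.

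Subunits of condensin I were the abundant ones in WT embryos before 10 hpf. At 2.5 hpf mean levels ran from ncapd2 (131 ± 13.3 FPKM) through ncaph (107 ± 9.95), smc4 (81.4 ± 3.75) and ncapg (69.2 ± 6.55) to ncaph2 (34.0 ± 2.51), ncapd3 (20.3 ± 2.97) and ncapg2 (12.4 ± 1.63; SD, n = 3 each). No neighbours in this order overlapped at 2.5 or 3.3 hpf, where the order was the same. At 5.3 hpf the order was ncapd2 (146 ± 7.09 FPKM), smc4 (135 ± 4.55), ncapg (127 ± 3.03), ncaph (111 ± 4.80), ncapd3 (26.4 ± 2.63), ncaph2 (25.6 ± 2.76) and ncapg2 (15.9 ± 3.38). There the libraries of ncapd2 overlapped those of smc4, those of smc4 overlapped those of ncapg, and those of ncapd3 overlapped those of ncaph2. The kleisin of condensin I had thus moved from the second place to the fourth. The lowest condensin I subunit stayed above the highest condensin II subunit in mean level at every WT stage.

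**Figure D1:**
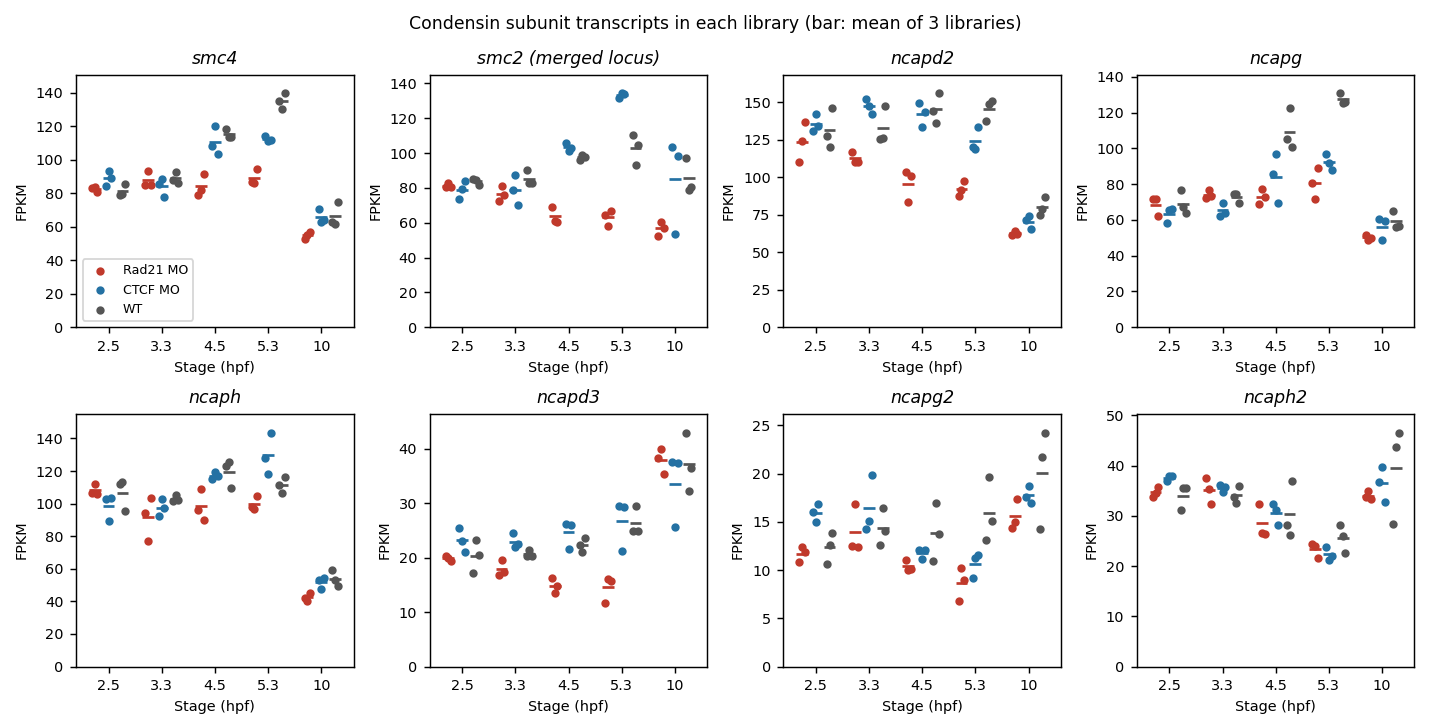
Level of each condensin subunit in FPKM (vertical axis, 1 panel per row of the table) in every library, by stage in hours post fertilisation (horizontal axis), with Rad21 MO, CTCF MO and WT from left to right at each stage; points are libraries and bars are means of 3. The condensin I subunits and smc4 peak in WT at 4.5 or 5.3 hpf and are lowest at 10 hpf, where the 3 condensin II subunits are highest.

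Over the WT course smc4 and the condensin I subunits fell between 5.3 and 10 hpf, and 2 of the 3 condensin II subunits rose in the values as deposited. smc4 stood at 63.0, 61.7 and 75.0 FPKM at 10 hpf, against 135, 130.5 and 139.6 FPKM at 5.3 hpf, a fall of the mean to 0.495-fold on the log2(FPKM + 1) scale used for every fold here (log2 change -1.01, SE 0.0804, adjusted p = 8.14e-08, limma with Benjamini-Hochberg adjustment over all genes tested). The 3 condensin I subunits fell with it, with log2 changes of -0.85 for ncapd2 (adjusted p = 3.08e-06), -1.09 for ncapg (adjusted p = 1.72e-07) and -1.03 for ncaph (adjusted p = 2.13e-07). None of the 4 overlapped between stages, where 31.7% of all genes lay lower without overlap. Because these are whole embryos, fewer dividing cells and less RNA per cell cannot be told apart.

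Of the condensin II subunits ncapd3 and ncaph2 rose over the same interval, ncapd3 not under every scaling. ncapd3 read 43.0, 32.3 and 36.5 FPKM at 10 hpf, against 24.9, 29.5 and 24.8 FPKM at 5.3 hpf (log2 change 0.48, SE 0.124, adjusted p = 0.00384). Its libraries did not overlap between stages. ncaph2 read 28.3, 43.8 and 46.6 FPKM at 10 hpf, against 28.2, 25.9 and 22.7 FPKM at 5.3 hpf (log2 change 0.58, SE 0.171, adjusted p = 0.00782), and the lowest library at 10 hpf lay only just above the highest at 5.3 hpf. ncapg2 had 14.2, 21.7 and 24.2 FPKM at 10 hpf and 13.1, 19.7 and 15.1 FPKM at 5.3 hpf, and did not pass the test (log2 change 0.30, adjusted p = 0.2201). Of all genes tested 68.9% were called between these stages, 31.2% lower and 37.7% higher, so that 6 of 7 subunits called is close to the background. The library that read 28.3 FPKM for ncaph2 also stood apart in ccng1, a p53 target gene, at 1824 FPKM against 441 and 339 FPKM in the other WT libraries of 10 hpf. Without that library ncapg2 passed (log2 change 0.52, adjusted p = 0.0365) and ncaph2 changed by 0.80 (adjusted p = 0.000231). For ncapg2 this was the 1 call in the 6 fits that left out a library. With each library rescaled to the same FPKM sum, ncapd3 was not called (0.35, adjusted p = 0.107), while the 4 lower subunits and ncaph2 were.

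Between 3.3 and 4.5 hpf smc4 and ncapg were the 2 subunits that rose in WT in the values as deposited, though not at an equal FPKM sum. smc4 read 118, 113 and 113 FPKM at 4.5 hpf, against 88.1, 92.9 and 85.8 FPKM at 3.3 hpf (log2 change 0.37, SE 0.0804, adjusted p = 0.00186). ncapg read 105, 123 and 101 FPKM at 4.5 hpf, against 74.4, 74.5 and 69.7 FPKM at 3.3 hpf (log2 change 0.58, SE 0.0933, adjusted p = 0.000185), and for both genes the 2 stages did not overlap. Of all genes 46.6% were called in this comparison and 25.3% were called higher, so 2 of 7 called higher is close to the background. Without overlap between the stages 30.9% of all genes lay higher. The direction depended on how libraries are scaled, since at an equal FPKM sum, where the median of all genes lay at -0.35, smc4 changed by -0.22 and ncapg by -0.013, neither of them called, and 5 other subunits, all of them lower, were called. Under that scaling 9326 of 17410 genes were called, so 5 of 7 is not read as particular to the subunits. With quantile normalization smc4 changed by -0.048 and was not called, and ncapg stayed called at 0.25 (adjusted p = 0.0450).

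The other WT steps gave no call for these genes in the values as deposited. Between 2.5 and 3.3 hpf limma called 0 of 7 subunits, against 2.46% of all genes called. At unadjusted p under 0.05 there were 0 of 7, beside 1657 of 17410 genes. From 4.5 to 5.3 hpf limma called 0 of 7, against 24.4% of all genes called. At unadjusted p under 0.05 there were 2 of 7, beside 6381 of 17410 genes. smc4 came closest, at 135, 130.5 and 139.6 FPKM at 5.3 hpf and 118, 113 and 113 FPKM at 4.5 hpf (log2 change 0.23, adjusted p = 0.0538).

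The summed FPKM of the 3 subunits particular to each complex gives their balance within a library. Over the 5 stages in order, condensin II made up 18.1%, 19.4%, 16.7%, 14.6% and 36.0% of the sum of both complexes in Rad21 MO. In CTCF MO the shares were 20.5%, 19.5%, 16.3%, 14.7% and 33.0%, and in WT 17.8%, 18.3%, 15.1%, 15.01% and 33.3%. In each of the 3 conditions the share at 10 hpf was thus higher than at any earlier stage, with libraries from 30.0% to 37.0% there and none above 21.4% before. A share within a library is untouched by rescaling that library by a common factor, and was not computed after quantile normalization.

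Neither morpholino moved a subunit past the threshold at 2.5 or 3.3 hpf. At 2.5 hpf limma called 0 of 7 subunits against WT with either morpholino, where it called 0% of all genes with each. At 3.3 hpf it again called 0 of 7 with either, where 0.171% of all genes were called in Rad21 MO and 0.0569% in CTCF MO. At unadjusted p under 0.05 there were 0 subunits in Rad21 MO and 1 in CTCF MO at 2.5 hpf, and 2 and 1 at 3.3 hpf. Over all genes these counts were 544 and 1140 of 13595 at 2.5 hpf, and 1116 and 1566 of 14051 at 3.3 hpf. The Rad21 MO and CTCF MO comparisons share their WT libraries throughout, so they are given side by side and not set against each other as independent. The subunit at unadjusted p under 0.05 at 2.5 hpf was ncapg2, with 16.0, 14.99 and 16.8 FPKM in CTCF MO against 10.6, 12.6 and 13.9 FPKM in WT (log2 change 0.35, adjusted p = 0.582). At 3.3 hpf ncapd2 read 117, 111 and 111 FPKM in Rad21 MO, against 125, 126 and 147 FPKM in WT (log2 change -0.23, adjusted p = 0.394), with no overlap.

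In the values as deposited, Rad21 MO embryos held less condensin RNA than WT at 4.5 and 5.3 hpf. At 4.5 hpf smc4, ncapd2, ncapg and ncapd3 were lower, 4 of 7 subunits against a background of 20.6% of all genes called and 10.1% called lower. At 5.3 hpf these 4 and ncapg2 were lower, 5 of 7 against 22.1% called and 9.9% called lower. The median change of the 7 was -0.45 at 4.5 hpf and -0.66 at 5.3 hpf, beside -0.071 and -0.031 over all genes tested. The smc2 locus was lower at both stages. Neither kleisin passed the test at either stage.

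The shared core is shown first. smc4 read 78.9, 81.7 and 91.5 FPKM in Rad21 MO at 4.5 hpf, against 118, 113 and 113 FPKM in WT (log2 change -0.45, SE 0.0994, adjusted p = 0.0148), and 86.6, 86.2 and 94.3 FPKM at 5.3 hpf, against 135, 130.5 and 139.6 FPKM (log2 change -0.60, SE 0.0776, adjusted p = 0.00148). Every Rad21 MO library lay below every WT library at both stages. The smc2 locus read 69.2, 61.0 and 60.5 FPKM in Rad21 MO at 4.5 hpf, against 95.8, 99.1 and 97.5 FPKM in WT (log2 change -0.61, SE 0.0905, adjusted p = 0.00428). Its levels at 5.3 hpf were 64.5, 57.9 and 66.6 FPKM in Rad21 MO, against 110.2, 93.4 and 104 FPKM in WT (log2 change -0.69, SE 0.0926, adjusted p = 0.00155). For smc4 the call at 4.5 hpf was lost without Rad21 MO library 0 (adjusted p = 0.0593), and the smc2 locus kept its call whichever library was left out.

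Of the condensin I subunits, both HEAT-repeat genes were lower and the kleisin was not called. ncapd2 read 104, 83.2 and 101 FPKM in Rad21 MO at 4.5 hpf, against 144, 137 and 156 FPKM in WT (log2 change -0.60, SE 0.112, adjusted p = 0.00846), and 87.4, 91.3 and 97.5 FPKM at 5.3 hpf, against 138, 149 and 151 FPKM (log2 change -0.66, SE 0.0874, adjusted p = 0.00154). ncapg read 69.1, 77.1 and 73.0 FPKM in Rad21 MO at 4.5 hpf, against 105, 123 and 101 FPKM in WT (log2 change -0.57, SE 0.136, adjusted p = 0.0188), and 80.7, 71.9 and 89.0 FPKM at 5.3 hpf, against 131, 125 and 126 FPKM (log2 change -0.66, SE 0.0948, adjusted p = 0.00212). The groups were apart in all 4 of these comparisons, where 21.5% of all genes at 4.5 hpf and 20.3% at 5.3 hpf lay lower without overlap. ncaph read 97.8, 96.8 and 104 FPKM in Rad21 MO at 5.3 hpf, against 111, 107 and 116 FPKM in WT. These libraries did not overlap, but the change was small and not called (log2 change -0.16, 95% interval -0.37 to 0.051, adjusted p = 0.259), and at 4.5 hpf it was -0.28 (adjusted p = 0.0868). The call on ncapg at 4.5 hpf was lost without Rad21 MO library 0 or 2 or WT library 1 (adjusted p up to 0.0698), while ncapd2 kept its call in every such fit.

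Of condensin II, ncapd3 was called lower at both stages, ncapg2 at 5.3 hpf only and the kleisin ncaph2 at neither, and differences between these subunits were not tested. ncapd3 read 16.3, 13.4 and 14.8 FPKM in Rad21 MO at 4.5 hpf, against 22.3, 21.03 and 23.7 FPKM in WT (log2 change -0.56, SE 0.128, adjusted p = 0.0165), and 11.7, 16.2 and 15.8 FPKM at 5.3 hpf, against 24.9, 29.5 and 24.8 FPKM (log2 change -0.83, SE 0.169, adjusted p = 0.00896). Its groups were apart at both stages. ncapg2 read 6.76, 10.2 and 9.004 FPKM in Rad21 MO at 5.3 hpf, against 13.1, 19.7 and 15.1 FPKM in WT (log2 change -0.81, SE 0.193, adjusted p = 0.0168), and its change at 4.5 hpf was -0.37 with overlapping groups (adjusted p = 0.143). The kleisin ncaph2 read 24.5, 23.9 and 21.7 FPKM in Rad21 MO at 5.3 hpf, against 28.2, 25.9 and 22.7 FPKM in WT, with overlap (log2 change -0.12, 95% interval -0.38 to 0.13, adjusted p = 0.487). ncapd3 lost its call at 4.5 hpf without WT library 2 (adjusted p = 0.0562), and ncapg2 lost its call at 5.3 hpf without WT library 1 or Rad21 MO library 0 (adjusted p up to 0.0601).

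**Figure D2:**
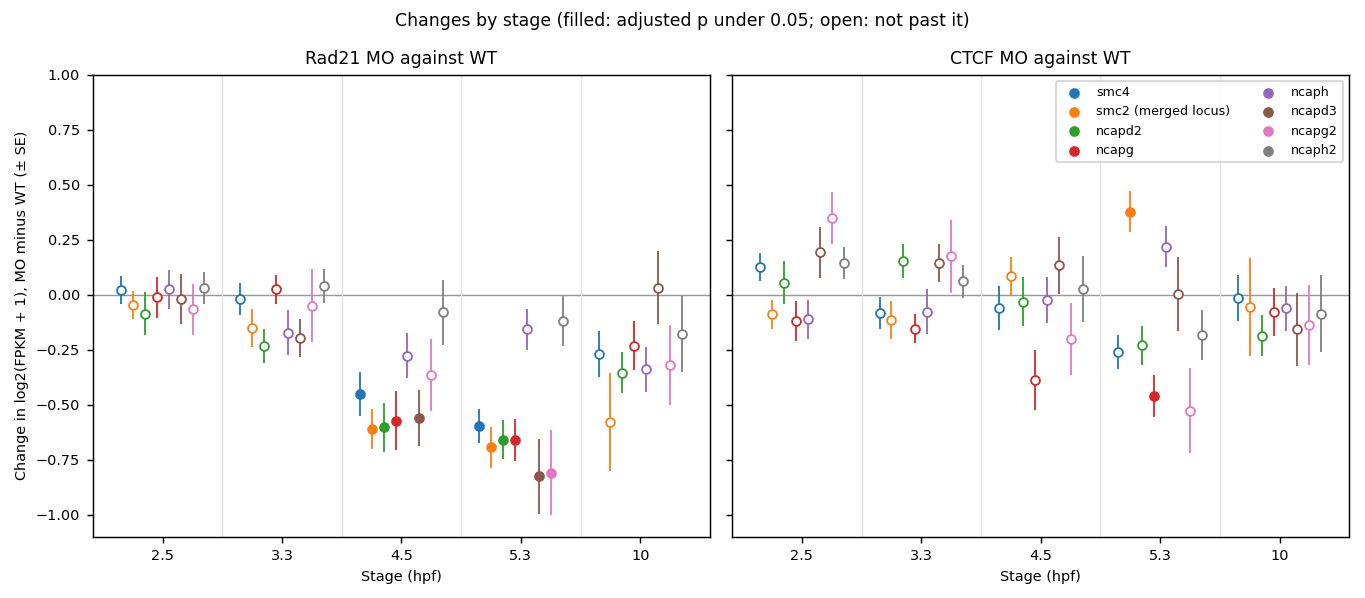
Change of each subunit against WT of the same stage as a log2 difference of FPKM + 1 with its standard error (vertical axis), by stage (horizontal axis), in Rad21 MO and CTCF MO; filled points have an adjusted p under 0.05 (limma, 3 libraries a group). In Rad21 MO the filled points lie at 4.5 and 5.3 hpf and below 0, and the kleisins ncaph and ncaph2 have none.

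How far below WT these subunits lay depended on how libraries were put on one scale. With every library rescaled to the same FPKM sum, the median of all genes moved to 0.19 at 4.5 hpf and 0.25 at 5.3 hpf, and 0 and 1 of the 7 subunits were called. The 1 was ncapg at 5.3 hpf (log2 change -0.30, adjusted p = 0.0302), and the smc2 locus was called beside it (log2 change -0.34, adjusted p = 0.0316). Over all genes this scaling gave 2023 calls at 4.5 hpf, against 3077 in the values as deposited, and 3640 at 5.3 hpf, against 3362. Measured from the shifted median, 6 of 7 subunits were below it at 4.5 hpf (-0.48 to 0.039) and 7 of 7 at 5.3 hpf (-0.73 to -0.032). Above 0 on that scale stood ncaph (0.20) and ncaph2 (0.22) at 5.3 hpf. With quantile normalization the same 5 subunits were called at 5.3 hpf, from -0.37 for smc4 (adjusted p = 0.0156) to -0.92 for ncapg2 (adjusted p = 0.0124), and at 4.5 hpf 1 was, ncapd3 (log2 change -0.63, adjusted p = 0.0139).

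**Figure D3:**
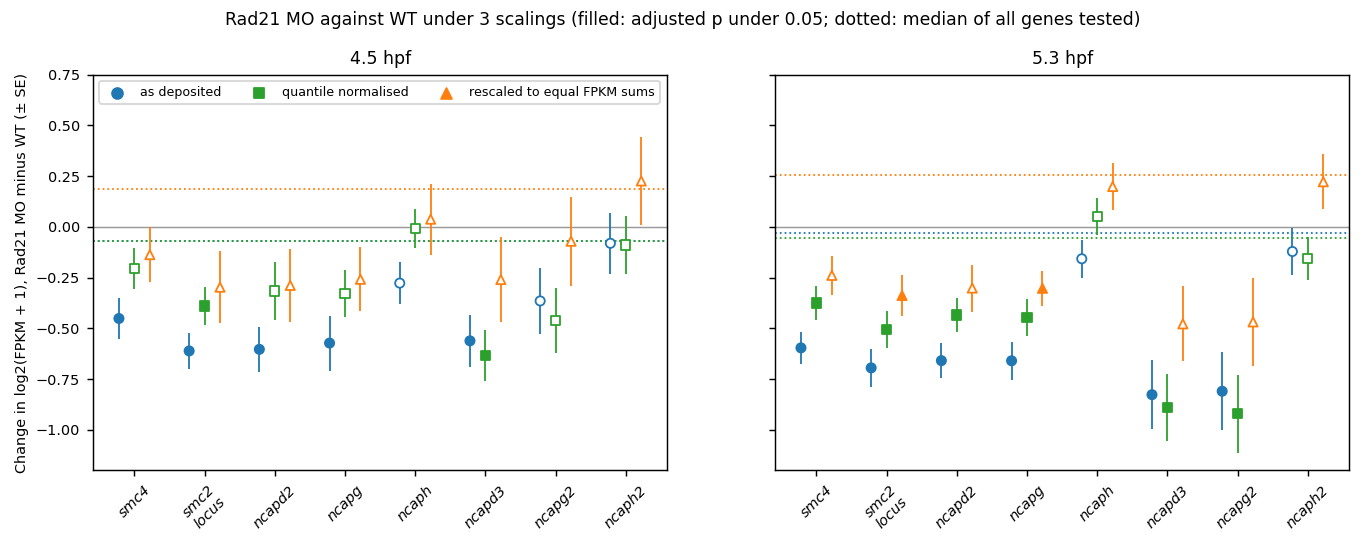
Change of each subunit in Rad21 MO against WT (log2 difference of FPKM + 1, vertical axis) at 4.5 and 5.3 hpf, in the values as deposited, after quantile normalization and after rescaling every library to the same FPKM sum; dotted lines give the median of all genes under each scaling, and filled points have an adjusted p under 0.05. Rescaling moves the points up and the median with them, to 0.19 and 0.25.

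Marker RNAs of other cells and of maternal origin were read in the same libraries. Summed over 5 germ plasm genes, maternal RNAs of the future germ cells, Rad21 MO libraries held 397 to 485 FPKM at 4.5 hpf, against 206 to 213 FPKM in WT, and 288 to 334 FPKM at 5.3 hpf, against 130 to 158 FPKM. Of these 5, 3 were called higher and 0 lower at 4.5 hpf, and 3 higher and 1 lower at 5.3 hpf, the lower being piwil1 (log2 change -0.56, adjusted p = 0.0128). The maternal RNA btg4, chosen after its values were seen, read 283, 181 and 175 FPKM in Rad21 MO at 4.5 hpf, against 31.2, 27.2 and 39.4 FPKM in WT. The 9 enveloping-layer genes summed to 790 to 1181 FPKM in Rad21 MO at 4.5 hpf, against 1302 to 2097 FPKM in WT, with 0 of 9 called. All 9 lay below 0 there (median -0.74), 5 of them without overlap, where 21.5% of all genes lay lower without overlap. At 5.3 hpf all 9 again lay below 0 (median -0.35), with 0 called. The 6 genes of the yolk syncytial layer summed to 158 to 260 FPKM in Rad21 MO at 4.5 hpf, against 209 to 333 FPKM in WT, which overlapped, with 0 of the 5 tested called. All 5 lay below 0 (median -0.53). Ovarian somatic markers, fixed as a check on maternal cells, summed to at most 0.917 FPKM at 4.5 and 5.3 hpf, with foxl2 and cyp19a1a at 0. The part of stage, maternal RNA and FPKM sum in the lower subunit levels was not tested.

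In CTCF MO embryos at most 1 subunit was called at any stage in the fits of the 9 libraries of a stage. The changes at 4.5 and 5.3 hpf had no common direction. With all 45 libraries in 1 fit more subunits were called at both of these stages, as counted below with the other processing choices. The share of all genes called in that fit is not given here. On the 9 libraries of 4.5 hpf limma called 0 of 7 subunits, against 0.00671% of all genes called. At unadjusted p under 0.05 there was 1 of 7, beside 2268 of 14902 genes. That 1 was ncapg, at 85.5, 96.9 and 69.2 FPKM in CTCF MO against 105, 123 and 101 FPKM in WT (log2 change -0.39, adjusted p = 0.241). At 5.3 hpf 1 of 7 was called, against 8.95% of all genes, again ncapg, which read 96.8, 92.1 and 88.2 FPKM in CTCF MO, against 131, 125 and 126 FPKM in WT (log2 change -0.46, SE 0.0948, adjusted p = 0.0199). Every CTCF MO library lay below every WT library. The call was lost without WT library 0, WT library 1 or CTCF MO library 1, and under either other scaling (-0.20, adjusted p = 0.174 at an equal FPKM sum, and -0.30, adjusted p = 0.0916 with quantile normalization).

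The kleisin of condensin I and the smc2 locus went the other way in CTCF MO. ncaph read 128, 118 and 144 FPKM in CTCF MO at 5.3 hpf, against 111, 107 and 116 FPKM in WT. The groups did not overlap and the change was not called (log2 change 0.22, 95% interval 0.0088 to 0.43, adjusted p = 0.177), but it was called under both other scalings (0.48, adjusted p = 0.0287 at an equal FPKM sum, and 0.38, adjusted p = 0.0445 with quantile normalization). The smc2 locus read 131, 134 and 134 FPKM in CTCF MO, against 110.2, 93.4 and 104 FPKM in WT (log2 change 0.38, SE 0.0926, fold 1.30, adjusted p = 0.0366), apart from WT in every library. Its call held under both scalings (0.64, adjusted p = 0.00477, and 0.53, adjusted p = 0.0137) and in 0 of the 6 fits that left out a library. smc4, its partner in the ring, read 114, 111 and 112 FPKM in CTCF MO, against 135, 130.5 and 139.6 FPKM in WT (log2 change -0.26, adjusted p = 0.0663). Of condensin II, ncapg2 changed by -0.53 (adjusted p = 0.120), ncaph2 by -0.18 (adjusted p = 0.348) and ncapd3 by 0.0035 (adjusted p = 0.994; 29.6, 21.2 and 29.3 FPKM, against 24.9, 29.5 and 24.8). Germ plasm genes summed to 242 to 360 FPKM in these CTCF MO libraries, against 130 to 158 FPKM in WT, 4 of 5 of them called higher and 0 lower, and their part in the changes was not tested.

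Set directly against each other at 5.3 hpf in the values as deposited, the morpholinos differed most in the smc2 locus and ncapd3. At 5.3 hpf smc4, ncapd2 and ncapd3 were lower in Rad21 MO than in CTCF MO, 3 of 7 against 4.5% of all genes called and 1.75% called lower. ncapd3 read 11.7, 16.2 and 15.8 FPKM in Rad21 MO, against 29.6, 21.2 and 29.3 FPKM in CTCF MO (log2 change -0.83, SE 0.169, adjusted p = 0.0326). The smc2 locus read 64.5, 57.9 and 66.6 FPKM in Rad21 MO, against 131, 134 and 134 FPKM in CTCF MO (log2 change -1.07, fold 0.476, adjusted p = 0.00405), and it kept its call in all 6 fits that left out a library. smc4 changed by -0.33 (adjusted p = 0.0463) and ncapd2 by -0.43 (adjusted p = 0.0327), and both lost the call in every such fit, while ncapd3 kept it in 1. At 4.5 hpf ncapd2 (log2 change -0.57, adjusted p = 0.0388) and ncapd3 (log2 change -0.69, adjusted p = 0.0355) were lower in Rad21 MO, 2 of 7 against 2.76% called and 1.25% called lower, and both lost the call in each of the 6 fits. At an equal FPKM sum 0 of 7 were called at either stage. Below 0 at 4.5 hpf were then 3 of 7, against 7 as deposited. With quantile normalization 1 of 7 was called at 4.5 hpf and 2 of 7 at 5.3 hpf, beside 427 of 14902 and 742 of 15214 genes. At 2.5 and 3.3 hpf limma called 0 of 7, with 0% and 0.0427% of all genes called. At unadjusted p under 0.05 there were 1 and 3 of 7, beside 766 of 13595 and 1334 of 14051 genes. Groups did not overlap for 5 of 7 subunits at 2.5 hpf, 4 of them lower in Rad21 MO, and for 3 of 7 at 3.3 hpf, 2 of them lower. Of all genes 4.85% lay lower and 7.02% higher without overlap at 2.5 hpf, and 4.8% and 8.63% at 3.3 hpf.

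At 10 hpf no subunit passed in any comparison of the morpholinos in the fit of the 9 libraries of that stage. With all 45 libraries in 1 fit, 3 subunits were called in Rad21 MO against WT and 2 against CTCF MO. The share of all genes called in that fit is not given here, so these counts have no background beside them. On the 9 libraries limma called 0 of 7 in Rad21 MO against WT (3.23% of all genes called), 0 of 7 in CTCF MO against WT (0.0182% called) and 0 of 7 in Rad21 MO against CTCF MO (3.38% called). At unadjusted p under 0.05 there were 3, 0 and 2 subunits in turn, beside 3067, 641 and 3176 of 16485 genes. The condensin I subunits and smc4 still lay below WT without overlap in Rad21 MO, 4 of 7 subunits, where 14% of all genes lay lower without overlap. ncapd2 read 61.7, 64.1 and 61.9 FPKM in Rad21 MO, against 75.1, 79.1 and 87.1 FPKM in WT (log2 change -0.36, adjusted p = 0.0788), and ncaph read 41.9, 40.3 and 45.1 FPKM, against 59.1, 53.2 and 49.7 FPKM (log2 change -0.34, adjusted p = 0.118). ncapd3 read 38.4, 40.0 and 35.3 FPKM in Rad21 MO against 43.0, 32.3 and 36.5 FPKM in WT (log2 change 0.032, 95% interval -0.34 to 0.40, adjusted p = 0.944). The smc2 locus read 52.4, 60.5 and 57.2 FPKM in Rad21 MO, against 97.0, 78.6 and 80.7 FPKM in WT. These libraries did not overlap, and limma did not call the locus (log2 change -0.58, adjusted p = 0.207). It is listed in the authors' deposited table for this comparison, as given below. Libraries of this stage differed in ccng1, at 2029, 2258 and 2074 FPKM in Rad21 MO, 1396, 360 and 1702 FPKM in CTCF MO, and 1824, 441 and 339 FPKM in WT, and the part of this in the levels was not tested. The CTCF MO library with 360 FPKM of ccng1 also read 53.5 FPKM for the smc2 locus, against 104 and 98.4 FPKM in the other CTCF MO libraries. Without it the smc2 locus was lower in Rad21 MO than in CTCF MO (log2 change -0.82, adjusted p = 0.0223). This was the 1 call in the 6 fits that left out a library, and with all libraries the locus was not called (log2 change -0.52, adjusted p = 0.242).

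Whether the Rad21 MO effect itself differed between stages was tested in 1 fit of all 45 libraries. From 3.3 to 4.5 hpf the effect became more negative for smc4 (difference of log2 changes -0.43, adjusted p = 0.00487), ncapd2 (-0.37, adjusted p = 0.0438) and ncapg (-0.60, adjusted p = 0.00477), 3 of 7 against 11.6% of all genes. Between 5.3 and 10 hpf it became less negative for smc4 (0.33, adjusted p = 0.0272), ncapg (0.43, adjusted p = 0.0367) and ncapd3 (0.86, adjusted p = 0.00201), 3 of 7 against 14.1% of all genes. In the steps between 2.5 and 3.3 hpf and between 4.5 and 5.3 hpf limma called a difference in 0 of 7, against 0.00528% and 0.0792% of all genes. At unadjusted p under 0.05 there were 0 of 7 in both steps, beside 355 and 1244 of 18943 genes. At an equal FPKM sum none of the 6 differences was called, and with quantile normalization only that of ncapd3 was. For the effect of CTCF MO limma called 0 of 7 in each of the 4 steps between stages, against 0.00528%, 0.106%, 0.0106% and 4.42% of all genes. At unadjusted p under 0.05 there were 1, 0, 0 and 3 of 7, beside 529, 1461, 1394 and 3221 of 18943 genes.

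The balance of subunits within a library does not change when the library is rescaled by a common factor. It was not computed after quantile normalization, which can change it. ncaph made up 36.6% ± 0.678 of the condensin I sum in Rad21 MO and 37.4% ± 1.71 in CTCF MO at 5.3 hpf, against 28.9% ± 0.841 in WT (SD, n = 3 each). The shares ran from 35.9% to 37.2% in Rad21 MO and from 35.9% to 39.3% in CTCF MO, above all WT libraries (28.0% to 29.6%). Each difference, 7.70 and 8.50 percentage points, had the smallest p that 3 against 3 libraries allow (exact two-sided permutation test, p = 0.1, adjusted 0.429 over 60 such tests), and this test cannot go under 0.05 at that size. At 10 hpf the share was 27.3% ± 1.28 in Rad21 MO and 28.9% ± 1.16 in CTCF MO, both overlapping the 27.9% ± 2.03 in WT. The ratio of the kleisin sum, ncaph plus ncaph2, to smc4 was likewise 1.38 ± 0.0400 in Rad21 MO and 1.35 ± 0.113 in CTCF MO at 5.3 hpf, against 1.01 ± 0.0181 in WT.

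Within the ring the smc2 locus and smc4 parted in CTCF MO at 5.3 hpf, and the other way at 2.5 hpf. Their ratio at 5.3 hpf was 1.19 ± 0.0319 in CTCF MO, against 0.760 ± 0.0511 in WT, with no overlap (exact permutation test, p = 0.1, the smallest possible), and 0.708 ± 0.0363 in Rad21 MO, overlapping WT. At 4.5 hpf it was 0.939 ± 0.0826 in CTCF MO and 0.848 ± 0.0341 in WT, which overlapped. At 2.5 hpf the ratio was lower in CTCF MO, 0.887 ± 0.0459 against 1.03 ± 0.0675 in WT, with no overlap (exact permutation test, p = 0.1). The groups overlapped at 3.3 hpf (0.937 ± 0.0408 against 0.959 ± 0.0661) and at 10 hpf (1.29 ± 0.376 against 1.30 ± 0.232). As the row merges smc2 with exoc1l, the ratio cannot say which of the 2 genes moved. The share of condensin II among both complexes at 5.3 hpf was 14.6% ± 1.37 in Rad21 MO, 14.7% ± 0.690 in CTCF MO and 15.01% ± 1.36 in WT, all overlapping, and at 10 hpf it was 36.0% ± 0.818 in Rad21 MO against 33.0% ± 0.314 in CTCF MO without overlap, and 33.3% ± 2.91 in WT, which overlapped Rad21 MO. The morpholinos stood the other way round at 2.5 hpf, 18.1% ± 0.256 in Rad21 MO against 20.5% ± 0.606 in CTCF MO without overlap. WT had 17.8% ± 1.85 there, also apart from CTCF MO.

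**Figure D4:**
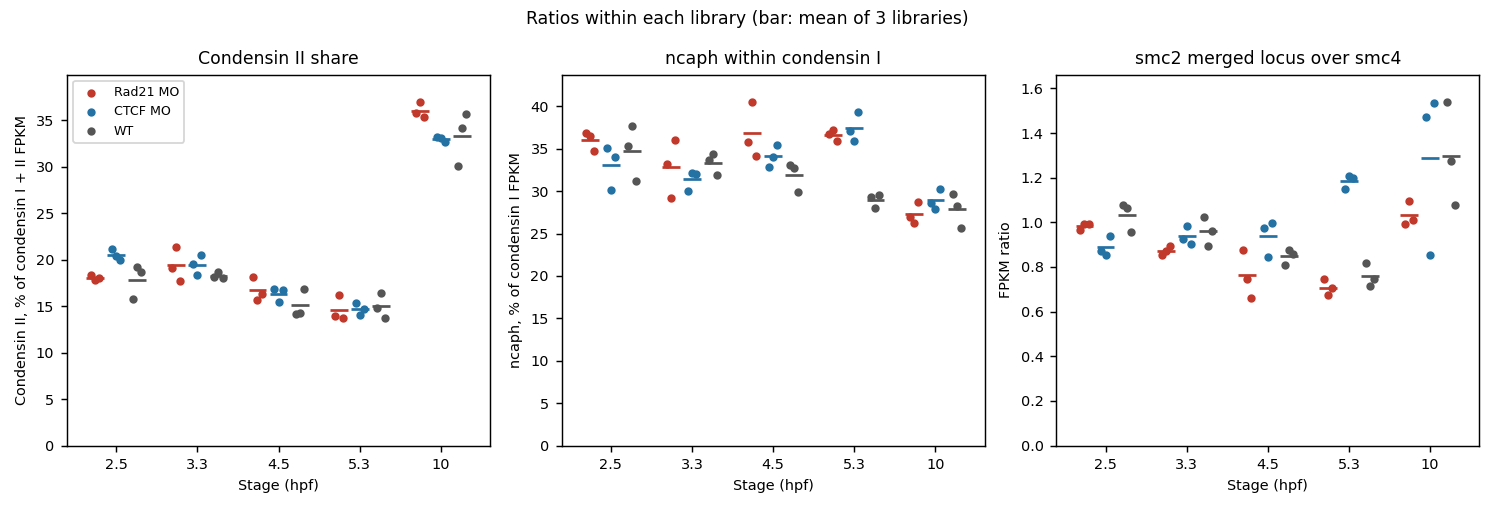
Share of condensin II in the summed FPKM of both complexes, share of ncaph in the condensin I sum, and ratio of the smc2 locus to smc4, per library (points) with group means (bars), by stage, with Rad21 MO, CTCF MO and WT from left to right. At 5.3 hpf the share of ncaph lies above WT in both morpholino groups, and the ratio of the smc2 locus to smc4 lies above WT in CTCF MO.

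The other genes of chromosome segregation were counted over 4 lists. In Rad21 MO at 4.5 hpf, of 31 tested mitotic chromosome partners of condensin 10 were lower and 3 higher (median -0.21), where 10.1% of all genes were lower and 10.6% higher, which became 0 lower and 5 higher at an equal FPKM sum and 0 lower and 6 higher with quantile normalization. At 5.3 hpf 12 were lower and 4 higher (median -0.26), where 9.9% of all genes were lower and 12.2% higher, against 0 and 5 at an equal FPKM sum and 2 and 5 with quantile normalization. The direction of the list therefore turned with the scaling. Called under all 3 scalings at 4.5 hpf were kif11, the spindle motor, at 0.85 as deposited (adjusted p = 0.00246), and incenp, the scaffold of the Aurora B complex, at 0.70. The proliferation marker mki67, which coats mitotic chromosomes, was at -0.66 at 5.3 hpf as deposited and -0.40 (adjusted p = 0.0322) with quantile normalization, but was not called at an equal FPKM sum (-0.30, adjusted p = 0.0836). akap8l, a nuclear scaffold protein, was at -0.70 as deposited, -0.51 (adjusted p = 0.00859) with quantile normalization and -0.35 (adjusted p = 0.0840) at an equal FPKM sum.

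Cohesin and its regulators, 17 genes tested, gave 7 lower and 2 higher in Rad21 MO at both stages (medians -0.30 and -0.23), the higher near the 10.6% and 12.2% of all genes, against 0 lower and 4 higher at 4.5 hpf and 0 lower and 5 higher at 5.3 hpf at an equal FPKM sum, and 2 lower and 2 higher at both stages with quantile normalization. Among the lower as deposited were smc1al (-0.60 at 4.5 hpf), a cohesin ATPase, and esco2 (-0.53), which acetylates cohesin. stag2a, a cohesin subunit, was higher under each scaling (0.85 as deposited). Of 27 kinetochore and spindle genes 4 were lower and 4 higher at 4.5 hpf, and 7 lower and 2 higher at 5.3 hpf, where an equal FPKM sum gave 0 lower and 7 higher and quantile normalization 2 lower and 4 higher. The counts at 4.5 hpf as deposited lay near the 10.1% and 10.6% of all genes called lower and higher. Over all genes in Rad21 MO against WT, an equal FPKM sum gave 2023 calls at 4.5 hpf and 3640 at 5.3 hpf, in either direction. Quantile normalization gave 2022 calls at 4.5 hpf, and its calls over all genes at 5.3 hpf are not given here. The list counts under these scalings, for the mitotic partners too, are not read as particular to the lists. The checkpoint gene zw10 was higher at both stages and under each scaling (1.01 and 1.10 as deposited). Of 6 tested genes of the SMC5/6 complex, the third of the SMC machines, 1 was lower and 1 higher in Rad21 MO at 4.5 hpf. At 5.3 hpf 2 were lower and 1 higher, beside 9.9% and 12.2% of all genes. The higher was smc6, called under each scaling (0.72 as deposited). Its partner smc5 was among the lower (-0.60), though it was not called at an equal FPKM sum (-0.25, adjusted p = 0.244).

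In CTCF MO none of these lists had a called gene at 4.5 hpf, where 0.00671% of all genes were called. At 5.3 hpf, where 3.87% of all genes were lower and 5.07% higher, the mitotic partners had 5 lower and 1 higher, against 0 lower and 5 higher at an equal FPKM sum and 0 lower and 2 higher with quantile normalization, and the kinetochore and spindle genes had 0 lower and 4 higher, against 0 and 6, and 0 and 3. Higher under each scaling were tpx2, a spindle assembly factor (1.17 as deposited), and nusap1, which bundles spindle microtubules (0.68). Cohesin genes had 5 lower and 1 higher, against 0 lower and 1 higher at an equal FPKM sum and 1 lower and 1 higher with quantile normalization, and SMC5/6 had 0. Of all 15214 genes tested, 1768 were called in either direction at an equal FPKM sum and 924 with quantile normalization. In WT between 5.3 and 10 hpf 13 of the partners were higher and 13 lower, with the mitotic cyclins ccna2 (-2.60) and ccnb2 (-2.65) among the lower, and the kinetochore and spindle list had 6 higher and 11 lower, including the separase gene espl1 (-1.58) and the securin gene pttg1 (-3.19), beside 37.7% of all genes higher and 31.2% lower in that step. At 10 hpf, where 3.23% of all genes were called, Rad21 MO had 2 lower partners, setb (-0.50) and ccna2 (-0.65), 1 higher and 1 lower cohesin gene, stag1a (0.57) and esco2 (-0.86), and 1 lower SMC5/6 gene, nsmce4a (-0.66), while CTCF MO, with 0.0182% of all genes called, had none in any of the 4 lists.

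The likeness of patterns was measured as the root mean square difference of centred log2 group means over the 15 groups, among 8608 genes with a mean of at least 5 FPKM. smc4 and ncapg were close (0.11), ncapg being number 20 in the ranking from smc4 and smc4 number 16 in that from ncapg. The nearest genes were skiv2l2 (0.081), SHPRH (0.086) and cdc40 (0.087) for smc4, and bckdha (0.076), dis3 (0.084) and matr3l1.1 (0.085) for ncapg. Within condensin II, ncapg2 and ncaph2 were 0.21 apart, ncapd3 and ncapg2 0.26 and ncapd3 and ncaph2 0.38. Within condensin I, ncapd2 and ncaph were 0.22 apart, and ncapg was 0.31 from each of them. Pairs across the complexes ran from 0.48 for ncapd2 and ncaph2 to 0.77 for ncaph and ncapd3. For ncapd2 the nearest were ANKLE1 (0.13), pccb (0.14) and POP1 (0.14), and for ncaph pigo (0.11) and cnot6 (0.12). For ncapd3 they were ddx56 (0.12), ubr4 (0.13) and huwe1 (0.15), for ncapg2 mettl13 (0.13), anapc2 (0.17) and tmem214 (0.17), and for ncaph2 pdlim5b (0.092), rock2a (0.099) and FAM59A (0.12). The smc2 locus lay nearest to mybl2 (0.14), kifc1 (0.15) and POLDIP3 (0.17). The points share libraries and their scaling, and these distances are descriptions.

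The authors' deposited tables of their own comparisons list only genes they marked as significant. In the authors' deposited table for Rad21 MO at 4.5 hpf stood 4 of the 8 condensin rows among 3668 genes, with log2 fold changes of -0.47 for ncapd3, -0.48 for ncapd2, -0.51 for ncapg and -0.54 for the smc2 locus. The authors' deposited table for 5.3 hpf held 6 among 3525 genes, smc4 (-0.57), ncapg (-0.62), ncapd2 (-0.64), the smc2 locus (-0.68), ncapd3 (-0.82) and ncapg2 (-0.88). For CTCF MO at 5.3 hpf the authors' deposited table, of 2172 genes, held the smc2 locus (0.37, q = 0.0418) and ncapg (-0.43, q = 0.0462). In the authors' deposited table for Rad21 MO at 10 hpf, of 1496 genes, the smc2 locus was the 1 condensin row (-0.60, q = 0.00122). No condensin row stood in the other 6 tables, and neither ncaph nor ncaph2 was listed in any of the 10.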

How the data were processed

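The authors deposited one FPKM value for each gene in each library. The submitters' processing notes name TopHat2 2.0.9, Cufflinks 2.2.0, Cuffdiff and the genome build Zv9 (danRer7); how libraries were scaled to each other is not given in the sources used here. FPKM depends on what else a library holds, and read totals are unknown. Of the low genes above 0 in both, 12.4% to 27.5% shared the commonest ratio of a library to the first library, in bins of 0.01 log2. This does not allow whole reads to be worked back, and no test for counts was used. For genes they marked as significant, the authors deposited a group FPKM, a log2 fold change, a p-value, a q-value and a test score, the last of which was not used.

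Tests used limma 3.58.1 (R 4.3.3) on log2(FPKM + 1) values (mean-variance trend, two-sided, Benjamini-Hochberg adjustment over all genes tested, call at adjusted p under 0.05), for genes with at least 3 libraries of the fit at 1 FPKM, a filter all 7 subunits passed in every fit. Stages were fitted on their 9 libraries, the WT course on 15, and differences between stages on all 45. Groups follow the sample titles, and libraries 0 to 2 are the column numbers. Nothing says that the pools of a group came from separate crosses, so the spread behind each p-value is that among these pools, which may be technical. Alternatives were a pseudocount of 0.1, no filter, rescaling to an FPKM sum of 1000000, quantile normalization, all 45 libraries in 1 fit, and leaving out each library. The statistics were tested on simulated data. Tables and plots used the R package data.table (version 1.17.8), Python 3.11.15, pandas 2.3.3 and matplotlib 3.10.9. The members and gene lists were chosen with earlier results of these data known. Named were all subunits, up to 4 called genes of a list per comparison by smallest adjusted p, the 3 genes nearest in pattern (1 of them is not reported here), and the morpholino targets.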

Additional observations from a re-analysis of the deposited data

Results flagged for a closer look

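In 6 cases the effect of Rad21 MO on a subunit differed between neighbouring stages in the values as deposited, by a test of the difference itself (limma on all 45 libraries). At an equal FPKM sum none of the 6 was called, and with quantile normalization only that of ncapd3 was. The sign turned for smc4 between 5.3 and 10 hpf at an equal FPKM sum. For ncapd2 between 3.3 and 4.5 hpf it turned with quantile normalization. Between 3.3 and 4.5 hpf the difference of log2 changes was -0.43 for smc4 (SE 0.102, adjusted p = 0.00487), -0.37 for ncapd2 (SE 0.122, adjusted p = 0.0438) and -0.60 for ncapg (SE 0.140, adjusted p = 0.00477). Between 5.3 and 10 hpf it was 0.33 for smc4 (SE 0.102, adjusted p = 0.0272), 0.43 for ncapg (SE 0.140, adjusted p = 0.0367) and 0.86 for ncapd3 (SE 0.191, adjusted p = 0.00201). In fits that left out 1 of the 12 libraries concerned, chosen after seeing the data, the early difference was called in 12 for smc4, 12 for ncapg and 4 for ncapd2, and the late one in 12 for ncapd3, 5 for smc4 and 3 for ncapg.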

How the results depend on the processing

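No paired analysis was possible because the columns carry the numbers 0 to 2 and not the replicate letters of the titles. A pseudocount of 0.1 changed none of the 216 results it was applied to. A result is counted as reversed only where it was called in the values as deposited or in the alternative, and as unchanged where it was called in neither. Rescaling to an equal FPKM sum reversed 7, weakened 22 and strengthened 5, and left 182 as they were. Quantile normalization reversed 3, weakened 10 and strengthened 1, and leaving out 1 library weakened 77, strengthened 7 and left 1596 as they were. Called or not, the sign of the change turned in 48 of 216 results at an equal FPKM sum and in 22 with quantile normalization.

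Counts of called subunits changed as follows. At an equal FPKM sum they were 0 and 1 for Rad21 MO against WT at 4.5 and 5.3 hpf, 0 and 0 for Rad21 MO against CTCF MO, 5 and 2 for WT at 4.5 against 3.3 and at 5.3 against 4.5 hpf, and 0 and 0 for the Rad21 MO effect at 4.5 minus 3.3 and at 10 minus 5.3 hpf. With quantile normalization they were 1 for Rad21 MO against WT and 1 against CTCF MO at 4.5 hpf, and 0 and 1 for those effects. With no filter Rad21 MO against CTCF MO gave 0 at 4.5 and 1 at 5.3 hpf. With all 45 libraries in 1 fit the counts were 1 and 3 for CTCF MO against WT at 4.5 and 5.3 hpf, 3 for Rad21 MO against WT and 2 against CTCF MO at 10 hpf, and 1 for WT at 5.3 against 4.5 hpf. Smaller shifts were 3 to 2 for Rad21 MO against CTCF MO at 5.3 hpf with quantile normalization, 6 to 5 for WT at 10 against 5.3 hpf at an equal FPKM sum, 3 to 2 for the first of those effects with no filter, and 1 more call each for Rad21 MO against WT at 4.5 hpf and against CTCF MO at 4.5 and 5.3 hpf with all 45 libraries. The cause was not tested. Over all genes at an equal FPKM sum, Rad21 MO against WT gave 2023 and 3640 calls at 4.5 and 5.3 hpf. Rad21 MO against CTCF MO gave 146 and 488 there, and the 2 WT steps gave 9326 and 4414. With quantile normalization the 2 Rad21 MO comparisons at 4.5 hpf gave 2022 and 427, and Rad21 MO against CTCF MO at 5.3 hpf gave 742. The shares of all genes called in the other fits are not given here.

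Among called results, for WT at 4.5 against 3.3 hpf the direction turned at an equal FPKM sum for smc4 (-0.22), ncapd2 (-0.46), ncapg (-0.013), ncaph (-0.38), ncapd3 (-0.46) and the smc2 locus (-0.40), and with quantile normalization for smc4 (-0.048) and ncapd2 (-0.46). The Rad21 MO effect turned for smc4 at 10 minus 5.3 hpf (-0.012, equal FPKM sum) and for ncapd2 at 4.5 minus 3.3 hpf (0.0077, quantile normalization). Counting called and uncalled subunits alike, an equal FPKM sum brought the subunits below 0 to 7 of 7 for WT at 5.3 against 4.5 hpf, against 2 as deposited, to 5 of 7 for Rad21 MO against WT at 4.5 and at 5.3 hpf, against 7, to 3 of 7 for Rad21 MO against CTCF MO at 4.5 hpf, against 7, and to 2 of 7 for CTCF MO against WT at 5.3 hpf, against 5.

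Leaving out 1 library gave 2 to 4 called subunits for Rad21 MO against WT at 4.5 hpf and 4 to 5 at 5.3 hpf, 0 to 1 for CTCF MO against WT at 5.3 hpf, 0 to 0 and 0 to 1 for Rad21 MO against CTCF MO at 4.5 and 5.3 hpf, 2 to 3, 0 to 1 and 6 to 7 for the last 3 steps of the WT course, and 2 to 3 and 1 to 3 for the Rad21 MO effects (0 to 1 for that of CTCF MO at 10 minus 5.3 hpf). Read depth is unknown, so the counting error of a value cannot be given.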
